A study of Mus musculus with 6 samples.

Results

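The 77 genes described here were higher in mouse dendritic cells after reactive oxygen species (ROS) had been generated inside the cells by light, and lay close to their unstimulated level after lipopolysaccharide (LPS), a bacterial membrane component. They were chosen from the authors' log2 intensity table, which covers 7989 annotated genes; where a gene had several probes, the brightest on average stood for it. A member had a mean after ROS at least 1 log2 unit above the unstimulated mean, and a mean after LPS within 0.5 log2 units of it on either side. In all, 85 genes met both thresholds, and 8 of them were left out by name under the selection rule (Thy1, Msc, Cyp4a12a, Ms4a3, Cd80, Slc24a3, Slc35b4 and Slc12a2). The ROS and LPS differences of the members therefore chose them. They are given below as a description. Where the text counts members called by a model fitted to all genes, the count stands beside the share of all genes called and is not evidence about the members.

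The cells were grown from the bone marrow of 6-week-old Rag2 KO mice (strain background C57BL, genotype C57BL/10NAGCSnAi-(KO) Rag2), cultured for 6 days with the cytokines GM-CSF and IL-4, both at 1.5 ng/ml. All 3 groups share the knockout, and animals without Rag2 have no mature T or B cells. For the ROS group, the cells took up hematoporphyrin, a porphyrin that makes ROS when lit, at 1 µg/ml over 1 h. They were then washed, exposed for 3 min to a light-emitting diode at 3.1 mW/cm2, whose spectrum spans 450 to 600 nm and peaks at 515 nm, and kept in culture for 18 h. The LPS group had LPS at 1 µg/ml for 18 h, and the third group was unstimulated. Whether unstimulated cells were given hematoporphyrin, light or the further 18 h is not stated in the labels, so a difference between ROS and unstimulated cells is one between whole procedures. Each group had 2 arrays, and the labels do not say whether these came from separate cultures or animals. The errors and p-values below cover the variation of these arrays alone, and that variation may be technical.

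Reactive oxygen species damage lipids, proteins and DNA, and they also act as signals inside cells. LPS acts through a Toll-like receptor and starts the maturation of dendritic cells, in which they stop taking up antigen, raise co-stimulatory molecules and secrete cytokines. Ribosome assembly, nucleotide synthesis, DNA copying and protein folding are machinery that growing and dividing cells need. On lists of such genes, chosen with earlier results of these data known, stand 11 of the 77. They are 3 of 46 measured genes for ribosome biogenesis, 3 of 16 for purine and pyrimidine synthesis, 2 of 32 for DNA replication and 3 of 25 for chaperones. A mitosis list holds 0 of 17. Over all genes the members are 77 of 7989.

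The mean raw signal of an array lay between 529 and 765, and 10428 to 11438 of 25697 probes were detected on an array, fewest on the LPS arrays. Replicate arrays correlated across the 11220 probes of the log2 table at r = 0.995 to 0.996, a description across probes that are not independent. Of 14 dendritic cell markers, 12 were in the table, among them MHC class II genes, while Flt3 and Cd209a were not. None of 10 T cell markers was in it (0 of 10).

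Promoter sequences show what some of these genes share in the bases that the selection did not use. RefSeq promoters (assembly GRCm38.p6) were found for 64 of the 77 members, and the 250 bases before the gene start were searched on both strands. CCAAT, the box bound by the factor NF-Y, occurred in 31 of 64 members (48.4%), against 37.3% of 6584 measured genes and 34.5% of 27025 promoters. The first sequences shown are those of members for DNA copying, ribosome assembly and protein folding that hold this box, capitals marking it (it reads ATTGG where it lies on the other strand). The Stip1 promoter holds 4 copies, their first bases 243, 199, 123 and 72 bases before the gene start.
Mcm2, chr6:88898781-88899030, minus strand: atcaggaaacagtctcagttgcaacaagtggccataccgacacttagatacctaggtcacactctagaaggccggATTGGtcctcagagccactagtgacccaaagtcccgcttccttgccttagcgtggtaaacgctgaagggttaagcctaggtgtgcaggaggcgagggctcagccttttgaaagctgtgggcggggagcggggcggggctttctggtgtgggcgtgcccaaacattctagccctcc
Nop56, chr2:130274162-130274411, plus strand: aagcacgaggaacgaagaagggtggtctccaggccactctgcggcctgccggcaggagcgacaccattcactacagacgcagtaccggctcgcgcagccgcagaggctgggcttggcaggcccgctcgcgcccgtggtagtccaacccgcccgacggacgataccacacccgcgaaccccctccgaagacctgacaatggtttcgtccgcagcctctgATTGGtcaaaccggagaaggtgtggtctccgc
Stip1, chr19:7040027-7040276, minus strand: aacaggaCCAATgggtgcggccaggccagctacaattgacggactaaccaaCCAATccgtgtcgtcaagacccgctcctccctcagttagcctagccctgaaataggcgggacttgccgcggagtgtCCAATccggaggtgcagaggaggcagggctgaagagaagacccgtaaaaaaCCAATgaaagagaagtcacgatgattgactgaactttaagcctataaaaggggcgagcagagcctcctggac
Fkbp4, chr6:128438657-128438906, minus strand: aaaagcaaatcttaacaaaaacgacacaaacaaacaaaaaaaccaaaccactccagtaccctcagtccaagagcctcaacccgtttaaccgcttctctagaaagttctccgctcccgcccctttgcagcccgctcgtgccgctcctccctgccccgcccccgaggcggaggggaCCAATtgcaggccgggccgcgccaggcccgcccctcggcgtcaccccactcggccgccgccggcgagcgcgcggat

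The E-box CACGTG, read by MYC with MAX and by related factors, was present in 2 of 64 members (3.12%), against 8.67% of measured genes and 6.05% of promoters. Those are Nme1 and Hsd17b7, shown because they are the only members with it in this window, the capitals marking it. The gene with the highest ROS difference, F2r, is shown with the antioxidant response core in capitals. This core, TGACNNNGC, the letters bound by NRF2 with small MAF proteins, reads there on the other strand as GCTGAGTCA. It overlaps a match to the AP-1 motif TGANTCA.
Nme1, chr11:93968273-93968522, minus strand: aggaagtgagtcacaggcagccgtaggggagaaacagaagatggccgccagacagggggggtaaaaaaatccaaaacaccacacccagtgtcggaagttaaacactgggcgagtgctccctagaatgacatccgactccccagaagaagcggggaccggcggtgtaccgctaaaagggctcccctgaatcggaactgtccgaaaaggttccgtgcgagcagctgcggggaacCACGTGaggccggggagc
Hsd17b7, chr1:169969206-169969455, minus strand: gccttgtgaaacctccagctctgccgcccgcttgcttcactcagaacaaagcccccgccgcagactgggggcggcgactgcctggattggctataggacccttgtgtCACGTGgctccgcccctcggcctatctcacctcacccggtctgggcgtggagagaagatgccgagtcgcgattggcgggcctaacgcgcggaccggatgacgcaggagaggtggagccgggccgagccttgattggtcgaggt
F2r, chr13:95618467-95618716, minus strand: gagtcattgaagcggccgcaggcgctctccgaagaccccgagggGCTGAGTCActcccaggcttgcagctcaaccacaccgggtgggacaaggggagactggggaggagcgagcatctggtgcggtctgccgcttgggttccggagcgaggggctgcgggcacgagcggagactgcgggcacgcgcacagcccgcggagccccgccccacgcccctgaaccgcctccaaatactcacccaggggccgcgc

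The antioxidant core occurred in 11 of 64 members (17.2%), against 11.8% of measured genes and 10.1% of promoters, and TGANTCA in 7 members (10.9%, against 4.81% and 6.87%). GGGCGG, the GC box, was in 38 members (59.4%), close to the 58.9% of measured genes. The median GC content of the window was 61.0% in members and 59.6% in measured genes. These shares were not tested, and a match of letters is not a bound site.

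Across the 77 genes the ROS difference ran from 1.00 in Abca7 to 2.57 in F2r, with a median of 1.18 log2 units, a median fold of 2.26. Most were modest: 65 of 77 lay under 3-fold, and 16 reached 1.5 log2 units. After normexp background correction of the deposited signals the median fold was 2.81, and the fold of 18 members was over 1.5 times the one in the authors' values. The standard error of a difference, from a limma fit in which all 6 arrays share an estimate of the spread, had a median of 0.09 and ran from 0.08 to 0.14. The 95% interval of the ROS difference lay above 1 in 33 members, and its lowest bound over all members was 0.77. In these bulk samples, fewer cells of a type and less RNA per cell cannot be told apart.

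The positions of the arrays follow largely from the rule and are given as a description. Both ROS arrays lay above both unstimulated arrays in 77 of 77 members (40.0% of all 7989 genes did so), and above all 4 other arrays in 77 of 77 (24.5% of all genes). The smallest gap from the lower ROS array to the highest other array was 0.46, in Mmp2. The median gap between replicate arrays was 0.07 in unstimulated, 0.09 in ROS and 0.10 in LPS samples. The widest were 0.41 in Nop58 (unstimulated), 0.51 in Apol7c (ROS) and 0.34 in Plac8 (LPS). At a limma adjusted p under 0.05, all 77 were called higher after ROS (25.6% of all genes) and 0 lower (20.2%), and all 77 lower after LPS than after ROS (31.3% of all genes). The rule itself leads to such counts.

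**Figure D1:**
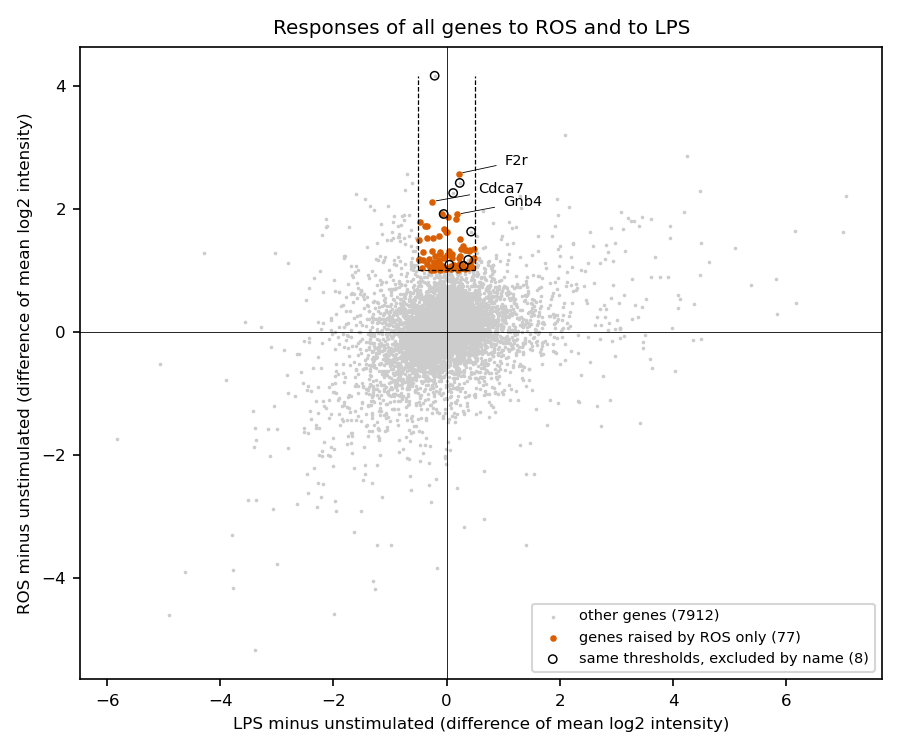
Each point is a gene, placed by its mean LPS minus unstimulated difference (horizontal, log2) and its mean ROS minus unstimulated difference (vertical, log2), with 2 arrays per group. Dashed lines mark the thresholds of 0.5 and 1. The 77 members (filled) occupy the narrow column above 1, F2r highest among them at 2.57, and the 8 genes excluded by name (open circles) lie in the same column.

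After LPS the members spread on both sides of 0, from -0.49 to 0.48 with a median of -0.02. In 35 members the LPS mean was above the unstimulated mean, and in 42 it was below. The threshold bounds the size of the LPS difference and does not mark genes that LPS left alone: 36 of 77 were called (18 higher and 18 lower), where 56.0% of all genes were (26.7% higher and 29.2% lower). The LPS and unstimulated arrays did not overlap in 61 of 77 members (78.1% of all genes). The 95% interval of the LPS difference lay wholly within 0.5 of 0 in 50 members and within 1 in all 77, and it held 0 in 33. The name "raised by ROS only" therefore describes the size of the differences in quantile-normalised values. The sign of a member's LPS difference depended on the scaling: with signals left unscaled, 0 of 77 lay above 0 after LPS, where the median of all probes was -0.44.

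**Figure D2:**
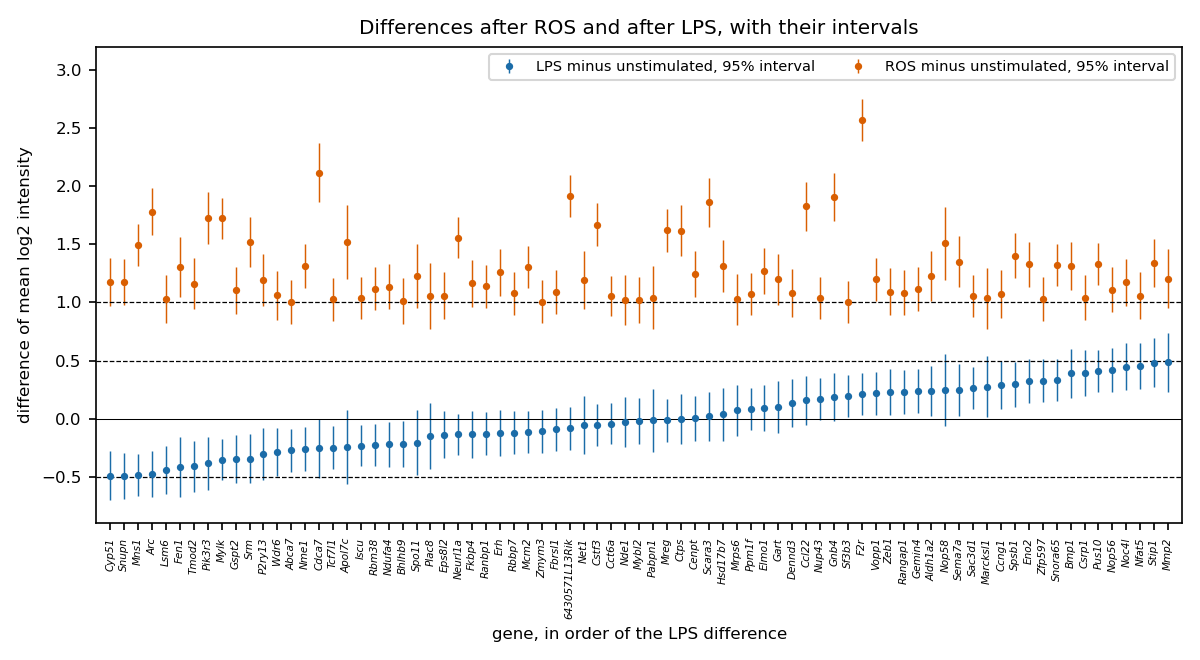
For each of the 77 genes, in order of the LPS difference (horizontal), points give the LPS and ROS differences from unstimulated (vertical, log2) with 95% intervals from the limma fit. LPS differences run from -0.49 (Cyp51) to 0.48 (Mmp2), all below the ROS difference of the same gene. Dashed lines mark the thresholds at 1 and at 0.5 on either side of 0.

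The thresholds cut through a continuous spread. Just inside the ROS threshold were Abca7 at 1.00, Sf3b3 at 1.01 and Zmym3 at 1.01. Just outside were Samd14 at 0.999, Ruvbl1 at 0.993 and Srsf1 at 0.992, and these 6 values differ by less than 1 standard error. At the LPS threshold, Cyp51 and Snupn (-0.49 each) and Mmp2 (0.48) were inside, while Exosc2 and Mtap (0.52 each) and Mcm6 (-0.53) were outside. Of 254 genes with a ROS difference of at least 1, 93 were also at least 0.5 higher after LPS and 76 at least 0.5 lower. The 85 that met both thresholds are 33.5% of the 254. They are 1.55% of the 5481 genes within 0.5 after LPS, where 3.18% of all genes reached 1 after ROS. In the other direction, 84 genes were lower by at least 1 after ROS with LPS within 0.5.

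Receptors and signalling proteins included the member with the largest ROS difference. F2r encodes the thrombin receptor, a protease-activated G protein-coupled receptor. Its log2 intensity was 9.72 and 9.65 on the unstimulated arrays, 12.25 and 12.26 after ROS, and 9.91 and 9.88 after LPS. The ROS arrays stood apart by over 2 log2 units from every other array, and the difference was 2.57 ± 0.08 (SE, n = 2 arrays per group), 5.94-fold. Gnb4, a beta subunit of the G proteins that such receptors use, gave 8.686 and 8.793 unstimulated, 10.589 and 10.709 after ROS, and 9.002 and 8.846 after LPS (difference 1.91 ± 0.09). Pik3r3, a regulatory subunit of phosphoinositide 3-kinase, gave 7.93 and 7.91, then 9.51 and 9.79, then 7.60 and 7.47 in the same order. It was highest after ROS (1.73 ± 0.10) and lowest after LPS (-0.39), where it was detected on 1 of the 2 arrays.

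Neurl1a, a ubiquitin ligase, was 7.56 and 7.52 in unstimulated cells and 9.08 and 9.11 after ROS (1.56 ± 0.08). Both LPS arrays were not well above background for it. Spsb1, the substrate adaptor of another ubiquitin ligase, was higher by 1.40 ± 0.09. Elmo1, which with DOCK proteins activates the small GTPase Rac, was higher by 1.27 ± 0.09 at the chosen probe. Its 11 other probes gave 0.18 to 0.97, all in the same direction and all under the threshold. The rule for naming genes did not reach the remaining members of this and later groups, which are given with their ROS differences alone so that all 77 are accounted for: Net1 (1.19), P2ry13, an ADP receptor (1.19), Dennd3, a Rab exchange factor (1.08), and Ppm1f, a phosphatase (1.08). In this group of 10 the median ROS difference was 1.34, and 6 members lay above 0 after LPS.

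**Figure D3:**
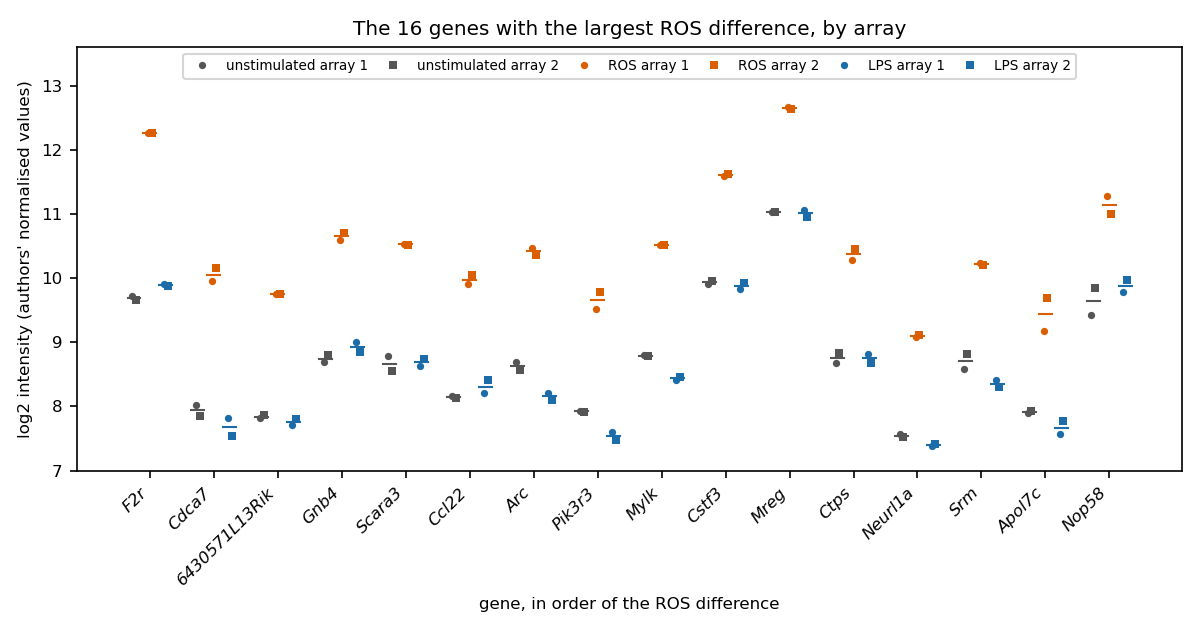
Log2 intensity (vertical, the authors' normalised values) of the 16 genes with a ROS difference of at least 1.5, ordered from the largest (horizontal). Circles and squares are the 2 arrays of each group and bars their mean. Every ROS array lies above the 4 other arrays of its gene, and levels are not comparable between genes.

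Secreted, surface and matrix proteins formed a group of 5, all above their unstimulated mean after LPS too (0.02 to 0.48). Scara3, a scavenger receptor family member known in human cells as an oxidant-induced gene, measured 8.78 and 8.55 unstimulated, 10.53 and 10.52 after ROS, and 8.63 and 8.74 after LPS. Its LPS arrays lay between the 2 unstimulated ones, and its ROS difference was 1.86 ± 0.10. Ccl22, a chemokine of dendritic cells and macrophages that attracts T cells, measured 8.16 and 8.13 unstimulated, 9.90 and 10.05 after ROS, and 8.20 and 8.40 after LPS. The ROS difference was 1.83 ± 0.10, 3.55-fold (5.79-fold after normexp background correction), against 0.16 with a 95% interval of -0.06 to 0.37 after LPS. Sema7a, a membrane-anchored semaphorin, was higher after ROS by 1.35 ± 0.10. The proteases Bmp1, which trims procollagen, and Mmp2, a gelatinase, were higher by 1.31 ± 0.09 and 1.21 ± 0.12, and had LPS differences of 0.39 and 0.48. The other 2 probes of Bmp1 gave ROS differences of 0.50 and 0.46.

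Among 6 cytoskeletal genes the median ROS difference was 1.11, and 4 lay below 0 after LPS. Arc, an actin-associated protein best known from synapses, gave 8.69 and 8.57 unstimulated, 10.47 and 10.36 after ROS, and 8.21 and 8.10 after LPS. The 3 groups did not overlap, with a ROS difference of 1.78 ± 0.09 and an LPS difference of -0.47. Mylk, the kinase of myosin light chain, followed the same order with 8.80 and 8.79, then 10.52 and 10.52, then 8.42 and 8.46, and a second probe also met both thresholds at 1.06. Marcksl1, a substrate of protein kinase C on the maturation list below, was higher by 1.03 ± 0.12 at the chosen probe and by 0.34 at the other. The rest were Tmod2, which caps actin filaments (1.16), Eps8l2, an actin regulator (1.06), and the LIM protein Csrp1 (1.04).

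For 4 members neither LPS array was well above background, so only a bound can be given there. ROS intensity over the LPS detection level was at least 3.06-fold in Neurl1a, at least 3.68-fold in Mns1, at least 2.76-fold in Tmod2 and at least 2.12-fold in Eps8l2. For the bound, each LPS array enters at its detection floor, or at the probe's own intensity where that was higher. For unstimulated over LPS it was at least 1.31-fold in Mns1 and under that in the other 3. Another 4 (Pik3r3, Spo11, P2ry13 and Tcf7l1) were detected on 1 LPS array, and 69 of 77 on all 6 arrays. All 77 were detected on both unstimulated and both ROS arrays.

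At their chosen probes the nucleolar and RNA-modifying members were all above 0 after LPS as well (5 of 5, 0.24 to 0.45). Nop58 and Nop56 are the paired core proteins of box C/D particles, which guide methylation of ribosomal RNA. Nop58 measured 9.429 and 9.840 unstimulated, 11.284 and 11.003 after ROS, and 9.781 and 9.976 after LPS, with overlapping unstimulated and LPS arrays and a ROS difference of 1.51 ± 0.14. Nop56, whose promoter is shown above, measured 8.57 and 8.73, then 9.74 and 9.78, then 9.09 and 9.05, so that LPS lay between the other groups (ROS 1.11 ± 0.09, LPS 0.42). Noc4l, needed for the small ribosomal subunit, was higher by 1.17 ± 0.09. Its second probe gave a ROS difference of 0.84 and an LPS difference of -0.06. Pus10, a pseudouridine synthase, was higher by 1.33 ± 0.08, with 1.26 at its second probe, where the LPS difference was 0.12. Snora65, annotated as a small nucleolar RNA of the box H/ACA class, was higher by 1.32 ± 0.08.

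Of 43 measured non-members on the ribosome biogenesis list, 32 rose, 0 fell and 11 were not called after ROS, with a median of 0.44, against 1972 higher and 1613 lower of 7912 non-members and a median of 0.03. With signals unscaled these counts were 23 and 1, against 1061 and 2443 of all non-members. After LPS 6 rose and 11 fell with a median of -0.06, which turned to 15 and 12 with a median of 0.03 under median scaling and to 1 and 33 with a median of -0.59 unscaled. Of all 7912 non-members 2117 rose and 2317 fell after LPS, 3492 and 2042 under median scaling. Unscaled, 580 rose and 5455 fell with a median of -0.46, so the unscaled LPS counts of this and later lists largely share a shift of all genes. Gar1, a core protein of box H/ACA particles, had the highest ROS difference of the 43 (0.94 ± 0.09, limma adjusted p = 1.23e-05), and was picked after its value was seen.

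DNA replication, chromatin and division genes numbered 11, with a median ROS difference of 1.23. Cdca7, a chromatin factor regulated through the cell cycle, gave 8.03 and 7.85 unstimulated, 9.95 and 10.16 after ROS, and 7.82 and 7.54 after LPS, 4.34-fold higher after ROS (2.12 ± 0.12; 8.30-fold after normexp background correction). Mcm2, a subunit of the helicase that opens replication origins, gave 8.22 and 8.27, then 9.52 and 9.58, then 8.12 and 8.14 (1.30 ± 0.08). Fen1, the flap endonuclease of lagging-strand synthesis, gave 9.50 and 9.71, then 10.78 and 11.05, then 9.10 and 9.29. Its LPS arrays lay below both unstimulated arrays (-0.42), and its ROS difference was 1.30 ± 0.12. Mns1, a protein of meiotic nuclei and cilia, was higher by 1.49 ± 0.08, and Ccng1, a cyclin and p53 target, by 1.07 ± 0.09. The other 2 probes of Ccng1 gave ROS differences of 0.62 and 0.64 with LPS differences of -0.93 and -0.05, where the chosen probe had 0.29.

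Others in this group were the kinetochore gene Cenpt (1.24), the meiotic recombination gene Spo11 (1.23), the histone-binding gene Rbbp7 (1.08), Sac3d1 (1.06), Nde1 of the dynein pathway (1.02) and the cell cycle transcription factor Mybl2 (1.02). On the replication list, 22 of 30 measured non-members rose after ROS and 0 fell (median 0.52; 18 and 0 unscaled), while after LPS 3 rose and 17 fell (median -0.32; 1 and 26 unscaled). The helicase shows what the LPS threshold did. Mcm4, Mcm5 and Mcm6 are sister subunits of Mcm2. The first pair was picked after values were seen, and Mcm6 was named for passing the ROS threshold just outside the LPS threshold. They were higher after ROS by 1.08, 1.56 and 1.09 (limma adjusted p = 2.53e-06, 1.79e-07 and 4.66e-06). Given how the subunits were picked, these p-values are a description only. Mcm4, Mcm5 and Mcm6 stayed outside through LPS differences of -0.63, -0.66 and -0.53, where Mcm2 had -0.12. None of 17 measured genes on the mitosis list used here was a member (0 of 17), where 77 of all 7989 genes were. After ROS 7 of the 17 rose and 1 fell. The median ROS difference was 0.05, well under the ROS threshold. After LPS 0 rose and 16 fell with a median of -1.59, beyond the LPS threshold. Both thresholds therefore kept genes of this list out.

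**Figure D4:**
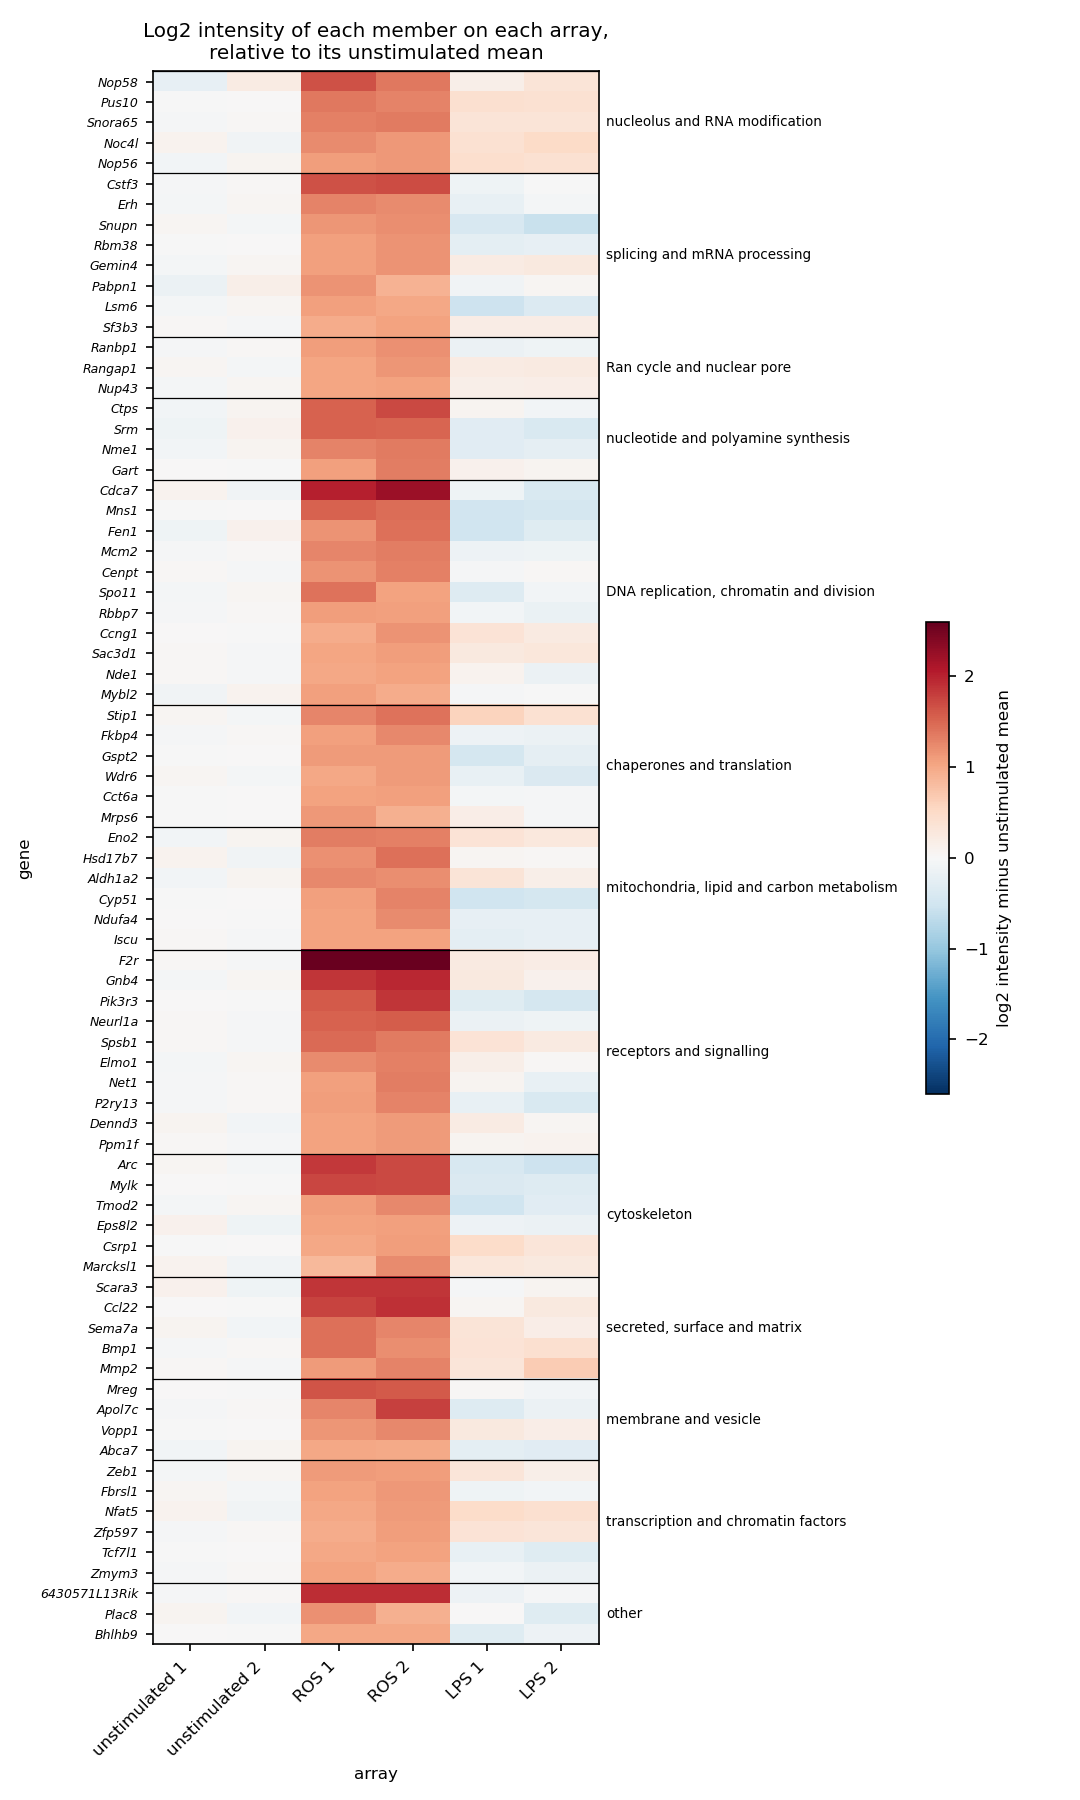
Each row is a member and each column an array, coloured by log2 intensity minus the member's unstimulated mean, with rows grouped by role. The ROS columns are raised in all 77 rows, darkest in F2r and Cdca7. The LPS columns are pale, above 0 on both arrays in the 5 nucleolar genes, and the mean over the LPS arrays is below 0 in 4 of 6 cytoskeletal and 6 of 8 splicing genes.

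Synthesis of nucleotides and polyamines was represented by 4 genes. Ctps, which makes CTP from UTP, measured 8.68 and 8.83 unstimulated, 10.28 and 10.46 after ROS, and 8.82 and 8.68 after LPS, with overlapping unstimulated and LPS arrays and a ROS difference of 1.62 ± 0.10. Its 2 other probes gave 1.54 and 0.55. Srm, spermidine synthase, measured 8.59 and 8.81, then 10.23 and 10.21, then 8.41 and 8.30 (1.52 ± 0.10, LPS -0.35), and its other probes 1.44 and 0.65. Nme1, a nucleoside diphosphate kinase whose E-box is shown above, measured 12.23 and 12.36, then 13.59 and 13.64, then 12.01 and 12.07, lowest after LPS and highest after ROS (1.32 ± 0.09).

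Gart, an enzyme of purine synthesis, was higher by 1.20 ± 0.10 at the chosen probe and by 0.51 at the other, which had an LPS difference of -0.63. Of 13 measured non-members of purine and pyrimidine synthesis, 6 rose and 3 fell after ROS (4 and 3 unscaled). After LPS 0 rose and 7 fell (0 and 13 unscaled, against 580 and 5455 of all 7912 non-members). Cad, which starts pyrimidine synthesis, was highest at 0.89 ± 0.09 (limma adjusted p = 1.49e-05), a gene picked after its value was seen. Among the 5 other polyamine genes 0 rose and 1 fell after ROS. Odc1, ornithine decarboxylase, the step before Srm, had a ROS difference of 0.08 ± 0.08 and an LPS difference of 1.21, and was likewise picked afterwards.

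Chaperones and translation factors gave 6 members with a median of 1.08. Stip1, which passes client proteins between the heat shock chaperones, measured 10.29 and 10.20 unstimulated, 11.52 and 11.65 after ROS, and 10.82 and 10.64 after LPS, 3 groups without overlap (ROS 1.34 ± 0.09, LPS 0.48). Fkbp4, a co-chaperone with prolyl isomerase activity, was higher by 1.16 ± 0.09 with LPS at -0.14. Cct6a, a subunit of the chaperonin that folds actin and tubulin, measured 12.33 and 12.33, then 13.37 and 13.40, then 12.28 and 12.30, with little spread between replicates (1.06 ± 0.08). Mrps6, a mitochondrial ribosomal protein, was higher by 1.03 ± 0.10. Gspt2, a termination factor, and Wdr6, which acts in tRNA modification, had values of 1.10 and 1.06. Of 22 other chaperone genes 9 rose and 4 fell after ROS (6 and 4 unscaled), and 5 rose and 10 fell after LPS (1 and 15 unscaled). Of 65 other mitochondrial ribosomal genes 26 rose and 4 fell after ROS (12 and 14 unscaled).

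Splicing and mRNA processing contributed 8 members, 6 of them below 0 after LPS. Cstf3, a subunit of the cleavage stimulation factor that acts at poly(A) sites, measured 9.91 and 9.96, then 11.59 and 11.62, then 9.83 and 9.93, a ROS difference of 1.67 ± 0.08. Its second probe gave 0.05, so the probes of this gene disagree by over 1.5 log2 units. Erh, a small nuclear protein, was higher by 1.26 ± 0.09, Snupn, the import adaptor of spliceosomal particles, by 1.17 ± 0.09, and Pabpn1, the nuclear poly(A)-binding protein, by 1.04 ± 0.12. Sf3b3 of the branch-site complex had 1.01 ± 0.08. Rbm38 (1.12), Gemin4 of the SMN complex (1.11) and the Sm-like protein Lsm6 (1.03) complete the group. Of the Ran cycle, which drives transport through nuclear pores, Ranbp1 (1.14), Rangap1 (1.09 ± 0.09) and the pore protein Nup43 (1.04) were members.

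Metabolic genes were mixed in what their lists did. Eno2, the neuronal isoform of enolase, measured 8.35 and 8.49 unstimulated, 9.76 and 9.74 after ROS, and 8.79 and 8.70 after LPS (ROS 1.33 ± 0.09, LPS 0.32). It was opposite to its list: of 23 other glycolysis and hypoxia genes 0 rose and 23 fell after ROS, with a median of -1.59. Hsd17b7 and Cyp51, both of the later steps of cholesterol synthesis, were higher by 1.31 ± 0.10 and 1.18 ± 0.09, with LPS at 0.04 and -0.49. Of 13 other cholesterol genes 4 rose and 4 fell after ROS (3 and 6 unscaled), and 1 rose and 7 fell after LPS (0 and 13 unscaled).

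Ndufa4, a subunit of the respiratory chain, was higher by 1.14 ± 0.09, where 13 of 69 others rose and 19 fell (3 and 37 unscaled). Iscu, the scaffold on which iron-sulphur clusters are built, measured 13.15 and 13.09, then 14.16 and 14.16, then 12.86 and 12.91 (1.04 ± 0.08). Aldh1a2, which makes retinoic acid, had a ROS difference of 1.23, and 0.69 at its second probe.

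Membrane and vesicle genes were Mreg, Apol7c, Vopp1 and Abca7. Mreg, melanoregulin, which acts on vesicle transport, measured 11.03 and 11.03, then 12.66 and 12.63, then 11.07 and 10.96 (1.62 ± 0.08). Apol7c, an apolipoprotein L family member, measured 7.89 and 7.94, then 9.18 and 9.69, then 7.57 and 7.77. Its ROS arrays differed more from each other than those of any other member, and both were above the rest (1.52 ± 0.14). Vopp1 was higher by 1.20 ± 0.08, and Abca7, a lipid transporter, by 1.00 ± 0.09 with 0.17 at its second probe.

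Transcription and chromatin factors lay near the threshold, from 1.01 to 1.09. They were Zeb1 (1.09), Fbrsl1 (1.09 ± 0.08), Nfat5, which responds to osmotic stress (1.06), Zfp597 (1.03), Tcf7l1 of the Wnt pathway (1.03) and Zmym3 (1.01 ± 0.08). The 3 members placed in no group were 6430571L13Rik, Plac8 (1.06) and Bhlhb9 (1.01). 6430571L13Rik measured 7.81 and 7.86, then 9.76 and 9.76, then 7.70 and 7.81, the third-ranked ROS difference of 1.92 ± 0.08.

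Genes measured by several probes give a view of the choice of probe. Of 20 such members, 37 other probes were in the table, and all 37 were above 0 in the ROS difference, with a median of 0.64 and a range of 0.05 to 1.54. Both thresholds were met by 6 of the 37 (Mylk, Ctps, Srm, Pus10, Net1 and Gemin4). With all probes of a gene averaged, 67 genes met the rule and 65 of them were members.

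The members stand beside maturation, interferon and antioxidant genes as follows. Of 26 other dendritic cell maturation genes 18 rose and 0 fell after ROS, while 13 rose and 8 fell after LPS (11 and 13 unscaled), and Ccl22 and Marcksl1 are the members on that list. Of 39 other cytokine and chemokine genes 11 rose and 8 fell after ROS (8 and 12 unscaled), and 28 rose and 6 fell after LPS. No member stood on the interferon list. Of these genes 29 of 33 rose after ROS and 33 of 33 after LPS. Their median ROS difference was 0.996, just under the ROS threshold, and their median LPS difference was 2.93, far beyond the LPS threshold. No member stood on the list of targets of NRF2, the regulator of antioxidant genes. Of 25 measured there, 6 rose and 7 fell after ROS, where 1972 and 1613 of all 7912 non-members did. Members are 77 of all 7989 genes, so 0 of 25 is not a result about the members. On the p53 list Ccng1 was the member, and 6 of 17 others rose and 3 fell after ROS (4 and 4 unscaled).

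**Figure D5:**
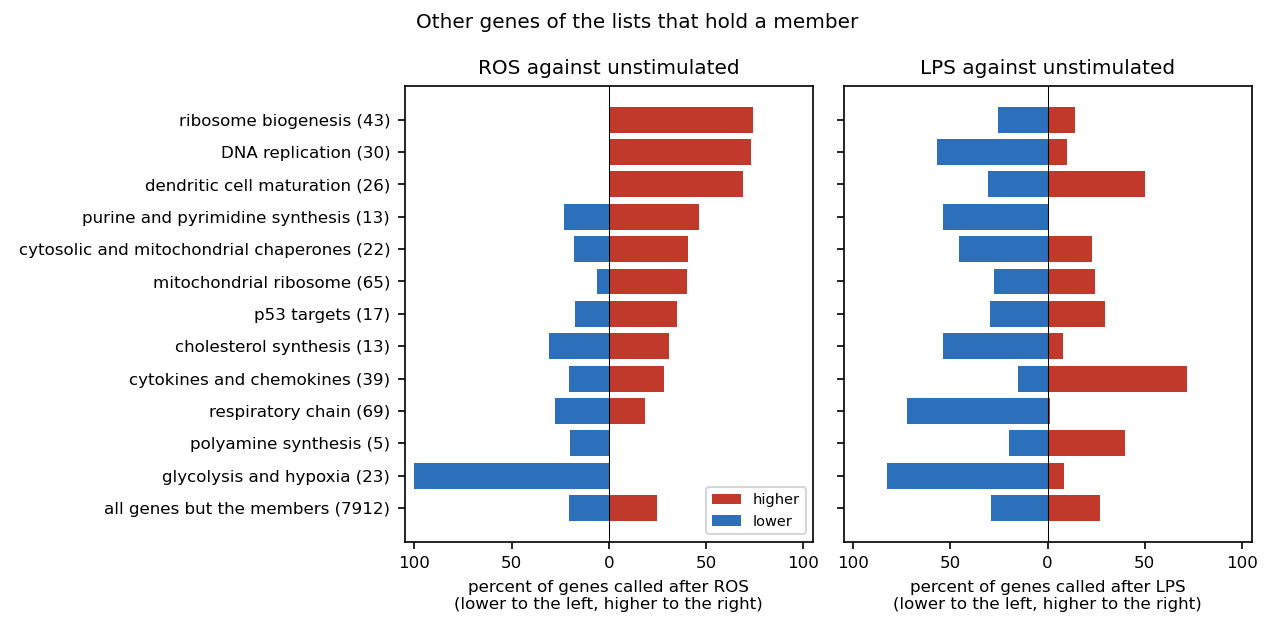
For each list that holds a member, bars give the percent of its other genes called lower (left of 0) and higher (right of 0) at a limma adjusted p under 0.05, after ROS (left panel) and LPS (right panel), with the number of genes in parentheses. Ribosome biogenesis (32 of 43), DNA replication (22 of 30) and maturation (18 of 26) have no bar to the left after ROS, and glycolysis has none to the right.

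Markers of other cell types moved between the groups, and none of them was a member. Median LPS differences were -1.08 for mast cell and basophil, -1.31 for eosinophil, -1.81 for neutrophil and -0.99 for macrophage markers, beyond the LPS threshold. Medians for B cell, natural killer, plasmacytoid dendritic, erythroid and stromal markers lay within 0.5, but only 2 to 5 markers of each were measured. Absence from the members is therefore no measure of any of these cells. Of 5 measured erythroid and megakaryocyte markers 4 rose and 0 fell after ROS (median 0.39), and 1 rose and 4 fell after LPS. Among 6 measured mast cell and basophil markers, 5 rose after ROS, and their summed normalised intensity was 3206 to 3337 in unstimulated, 10433 to 10857 in ROS and 13709 to 15477 in LPS samples. After LPS 1 of them rose and 4 fell, and the sum there is carried by Hdc, histidine decarboxylase, with an LPS difference of 4.19. Ms4a2, Kit, Gata1 and Mcpt8 were among the 9 of that list not in the table. All 4 eosinophil markers in the table rose after ROS, summing to 8753 to 8835, 21274 to 22161 and 898 to 901 in the same order, with Siglecf, Ccr3 and Il5ra not in it. Of 14 neutrophil and precursor markers 4 rose and 9 fell (47345 to 50896 after ROS, against 61668 to 63238 unstimulated and 21198 to 21555 after LPS), and of 7 macrophage markers 5 fell. Dendritic cell markers moved as well: among 12 measured, 3 rose and 5 fell after ROS, and 0 rose and 8 fell after LPS. Their summed intensity was 110762 to 122714 in unstimulated, 55029 to 56952 in ROS and 59386 to 64843 in LPS samples. A sum weighs bright genes most: over the 12 markers the median difference was -0.20 after ROS and -0.57 after LPS. The part of these cells in the members' values was not tested.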

How the data were processed

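Total RNA of 6 samples was amplified to biotin-labelled cRNA and read on a 1-colour Illumina bead array. Per the submitters' processing notes, GenomeStudio 2009.2 was used. The authors deposited probe signals as intensity on a linear scale for 25697 probes, with detection p-values deposited for 5 of the 6 arrays, and a log2 table of 11220 probes. That deposited log2 table held every probe detected at p under 0.05 on at least 3 arrays and no other, and differed by at most 0.00175 from the log2 of the quantile-normalised signals of those probes. No background subtraction beyond that of the deposited signals was seen, so differences of dim genes are compressed. The detection limit of the second LPS array was recovered from which probes the log2 table lists.

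Of these probes 10558 had 1 gene symbol in the platform annotation, and 662 had none or several, which were not told apart. The probe with the highest mean stood for each of the 7989 genes, and the 77 members all matched RefSeq. The log2 values were fitted with limma 3.58.1 (lmFit and eBayes) in R 4.3.3, all 6 arrays in 1 fit with no covariates (residual degrees of freedom 3, prior 7.56). Each of 3 comparisons had its own Benjamini-Hochberg adjustment across the 11220 probes, and a probe was called at an adjusted p under 0.05. The fit was tested on simulated data. Tables were handled in Python 3.11.15. Arrays give no counts, so the number of arrays limits the precision.

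The members and the gene lists were chosen with earlier results of these data known, and the role groups after the members were known. Genes were named by rule: the 30 largest ROS differences, members on a list, 3 genes on either side of each threshold, the 10 highest means, and members whose probes differ by over 1. Alternatives were normexp background correction (offset 16), median scaling, no scaling, filters on detection, the mean of a gene's probes, other thresholds, a replicate block and leaving out each array.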

Additional observations from a re-analysis of the deposited data

How the results depend on the processing

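The number of genes meeting the rule was 77. It was 149 after normexp background correction, 50 of them among the 77, and 26 with signals unscaled, 15 of them among the 77. In the first case all 77 kept a ROS difference over 1 and their median rose to 1.49, while 27 passed the LPS bound (9 at or above 0.5 and 18 at or below -0.5). Without scaling, 41 members had a ROS difference under 1 and 46 an LPS difference at or below -0.5. The all-probe median then lay at -0.11 after ROS and -0.44 after LPS, and under median scaling at 0.07 and 0.18. A ROS threshold of 1.5 left 16 genes and one of 0.8 gave 163, by construction. Median scaling gave 80 genes (66 shared), and leaving out an array 74 to 81 (64 to 74 shared). All 77 members were called higher after ROS and lower after LPS than after ROS under every setting, except that 69 of 69 were under the stricter detection filter. Members called after LPS numbered 36, against 72 without scaling and 22 without unstimulated replicate 2; leaving out each array gave 22 to 36. With signals unscaled, 580 of all 7912 non-members were called higher and 5455 lower after LPS, against 2117 and 2317 in the main fit. The count of 72 therefore stands beside a shift of all genes and is not a change of the members alone. For these changes in the LPS count the cause was not tested. The replicate numbers share only a number (same-numbered deviations correlated at -0.14, 0.02 and -0.05), and a replicate block in the fit gave counts of 77, 34 and 77 for the 3 comparisons. These counts follow from the rule and support nothing about the members. For the named genes, 725 of 725 recomputed ROS differences kept direction and call. Probes near background limit the LPS values of the 8 members not detected on both LPS arrays.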

Other observations

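A further 5 probes without a single gene symbol in the annotation used here met both thresholds, with ROS differences of 1.23 to 2.26 and LPS differences of -0.48 to -0.06. The probe with the largest ROS difference of these had mean log2 intensities of 11.20 unstimulated, 13.46 after ROS and 10.98 after LPS.

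The 77 genes lie on 19 chromosomes, with 7 each on chromosomes 2, 9 and 16 and 4 on the X chromosome.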
